A study of Mus musculus with 20 samples.

Results

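The genes described here are 45 interferon-stimulated genes, taken by symbol, in livers in which the mRNA of HuR (ELAVL1), an RNA-binding protein that regulates other mRNAs after transcription, was knocked down. A gene was a member when its symbol equalled a listed name, ignoring case. The table of WT mouse livers listed 43 of them among 55335 mouse genes, and the table of humanized mouse livers listed 35 among 60607 human genes. Of these symbols, 33 were in both tables, 10 were in the mouse table alone, and OAS1 and OASL were in the human table alone.

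Interferons are secreted proteins that cells make on sensing viral nucleic acid. Type I and type III interferons act through receptor-bound kinases on a factor that includes STAT2 and IRF9 and binds the interferon-stimulated response element (ISRE) of target genes, while interferon gamma acts on the gamma-activated site (GAS). The induced genes encode sensors that amplify the signal, proteins that block viral RNA and protein synthesis, and GTPases that act on vacuoles holding microbes. Hepatocytes and liver macrophages both mount this response, and an adenovirus is one of the agents that can start it.

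The WT mice were male C57BL/6 animals bought at 8 weeks of age. The humanized mice were immunodeficient TK-NOG animals, whose thymidine kinase transgene is driven by a mouse albumin promoter in the liver. At 8 to 9 weeks of age ganciclovir removed the transgenic liver cells, cryopreserved primary human hepatocytes were transplanted, and the serum human albumin was measured 8 to 12 weeks later. Every mouse received 2000000000 pfu of adenovirus, carrying either a HuR shRNA (mouse HuR in WT mice, human HuR in humanized mice; HuR KD) or a LacZ control, and livers were collected 7 days later, following 4 h without food. There were 6 HuR KD and 6 LacZ livers of WT mice, and 4 and 4 of humanized mice. All livers had thus been exposed to virus, and a group without virus was not analysed here. The human table holds human genes alone, so the mouse cells that remain in those livers do not enter it.

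HuR mRNA was lower in every HuR KD liver than in every LacZ liver of its set. Elavl1 lay between 8.58 and 10.7 TPM (transcripts per 1000000 transcripts) in the WT LacZ livers and between 3.72 and 5.62 TPM in the WT HuR KD livers (exact permutation test, two-sided, p = 0.00216, which is the lowest value possible with these group sizes). ELAVL1 lay between 4.77 and 6.17 TPM in the humanized LacZ livers and between 2.37 and 4.05 TPM in the HuR KD livers (the same exact permutation test, p = 0.0286, again the lowest possible). Reads recovered from the steps of the TPM numbered 1423985 to 44668272 in the WT livers and 2670469 to 20302454 in the humanized livers. WT LacZ liver 2, with 1423985 reads, and HuR KD liver 6, with 12960373, were the shallowest of their set. In the humanized set, HuR KD liver 4 and LacZ liver 2 were the deepest and, although of different groups, the most alike of any pair (r = 0.965 across genes). The summed level of hepatocyte markers ran from 58124 to 75496 TPM in the WT livers, over 4 markers. It ran from 38168 to 87961 TPM in the humanized livers, over 6 markers, so the sums are not compared between sets.

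In WT livers the interferon-stimulated genes were lower with HuR knockdown nearly throughout. All 43 were tested and all 43 had a log2 fold change below 0, and 39 of them were called lower at an unadjusted p under 0.05 by limma, against 6.94% of the 15090 genes tested. Of all genes 43.2% had a log2 fold change below 0. The members were chosen with earlier results of these data known. The shares given here and below thus describe them and are not tests. In limma 0 members were called higher, at an unadjusted or an adjusted p, where 9.09% and 0.371% of all genes were. After adjustment over all genes 2 passed, Slfn4 and Oas3, where 0.517% of all genes passed and were lower. The median log2 fold change of the 43 genes, on the log2(TPM + 1) scale, was -0.66, and that of all genes tested was 0.03. The 4 genes that did not pass were Irf9 (-0.26), Mx2 (-0.36), Irf1 (-0.03) and Trim25 (-0.01). Without the 2 shallowest livers, 25 of the 43 were called lower and the median was -0.51. The 14 that lost their call there were Cmpk2, Dhx58, Gbp2, Ifi35, Ifi47, Ifit1, Ifit3, Isg15, Oasl1, Parp14, Parp9, Rsad2, Stat2 and Zbp1.

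The response was uneven from liver to liver in both WT groups. As a description, each liver was given the mean over the 43 genes of its log2(TPM + 1) minus the mean of the LacZ livers. LacZ livers 1, 2 and 6 scored 0.45, 0.17 and 0.18, and LacZ livers 3, 4 and 5 scored -0.23, -0.15 and -0.41. HuR KD livers 1, 2 and 4 scored -0.33, -0.33 and -0.35, within the range of the control livers. HuR KD livers 3, 5 and 6 scored -0.92, -0.87 and -1.02, below all control livers. The values that make up these scores were also counted gene by gene, which is not a separate observation. HuR KD livers 3 and 5 each lay below every LacZ liver for 42 of the 43 genes and liver 6 for 40. Livers 1, 2 and 4 did so for 15, 13 and 11. LacZ liver 1 was the highest of the 12 for 33 genes. HuR KD liver 6, the shallowest HuR KD liver, was the lowest for 22. Such counts were not made over all genes, so whether they are particular to the members was not tested.

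**Figure D1:**
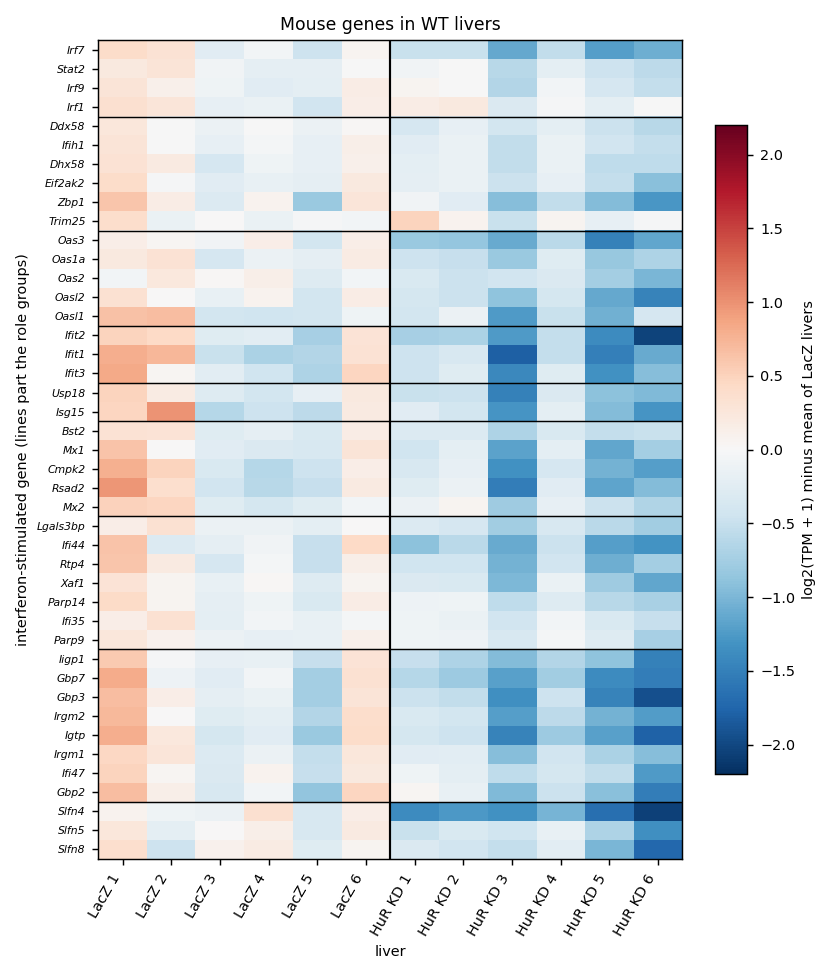
Each cell is the log2(TPM + 1) of a mouse gene in 1 WT liver minus the mean of the 6 LacZ livers, with genes in rows, ordered by role and divided by lines, and livers in columns (blue, lower; red, higher). HuR KD livers 3, 5 and 6 were low across the rows, HuR KD livers 1, 2 and 4 had scores within the LacZ range, and Slfn4 and Oas3 were below every LacZ liver in all 6.

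The HuR KD and LacZ livers did not overlap for 7 genes: Slfn4, Oas3, Irf7, Lgals3bp, Iigp1, Ddx58 and Oas2. Of all genes tested, 1.23% were lower without overlap and 1.25% higher, and 0 members were higher without overlap. In what follows the lowest, median and highest liver of each group of 6 is given in that order.

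Among the signalling factors, Irf7, the transcription factor that amplifies type I interferon production, stood at 45.3, 62.8 and 82.98 TPM in the LacZ livers and 26.6, 35.96 and 44.6 TPM in the HuR KD livers (log2 fold change -0.82 ± 0.18 SE, adjusted p = 0.0528; limma with Benjamini-Hochberg adjustment, as for every adjusted p here). The groups did not overlap. Stat2, a subunit of the factor that binds the ISRE, stood at 25.5, 28.3 and 35.8 TPM in the LacZ livers and 18.8, 23.1 and 29.2 TPM in the HuR KD livers (log2 fold change -0.32 ± 0.12 SE, adjusted p = 0.223). Its groups overlapped, as 4 of 6 HuR KD livers were below all LacZ livers. Irf9, the DNA-binding subunit of the same factor, ranged from 27.4 to 39.7 TPM in LacZ and from 20.6 to 34.1 TPM in HuR KD livers (adjusted p = 0.398). Irf1, a factor induced strongly by interferon gamma, covered almost the same range in both groups, 19.2 to 33.6 and 20.6 to 30.6 TPM (adjusted p = 0.937). Thus 2 of the 4 signalling factors fell.

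Of the 6 nucleic acid sensors and their partners 5 fell, by modest amounts. Ddx58, which encodes the RNA sensor RIG-I, stood at 15.7, 17.1 and 20.8 TPM in the LacZ livers and 10.9, 12.9 and 15.1 TPM in the HuR KD livers (log2 fold change -0.38 ± 0.09 SE, adjusted p = 0.0615), without overlap. Ifih1, which encodes the sensor of long double-stranded RNA MDA5, stood at 22.2, 24.9 and 30.98 TPM in the LacZ livers and 17.01, 19.98 and 22.8 TPM in the HuR KD livers (log2 fold change -0.34 ± 0.10 SE, adjusted p = 0.123). Dhx58 (LGP2, -0.36), Eif2ak2 (the kinase PKR, -0.40) and Zbp1 (a sensor of Z-form nucleic acid, -0.67) also fell. Trim25, the ubiquitin ligase that acts on RIG-I, had a mean of 35.9 ± 5.49 TPM in LacZ and 36.2 ± 8.48 TPM in HuR KD livers (SD, n = 6 each). The median over the 6 was -0.37.

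All 5 OAS genes fell. OAS proteins make a short oligoadenylate on binding double-stranded RNA, which activates the ribonuclease RNase L. Oas3, at chr5:120753098-120777661, minus strand of GRCm38, stood at 3.105, 4.76 and 4.98 TPM in the LacZ livers and 0.936, 1.76 and 2.57 TPM in the HuR KD livers (log2 fold change -0.998 ± 0.15 SE, adjusted p = 0.0101), so that its mean in HuR KD livers was 39.5% of control and every HuR KD liver lay below every LacZ liver. Oas1a stood at 4.66, 6.45 and 8.096 TPM in the LacZ livers and 3.11, 3.87 and 5.06 TPM in the HuR KD livers (log2 fold change -0.59 ± 0.14 SE, adjusted p = 0.0613), with a single HuR KD liver inside the LacZ range. Oas2 stood at 4.73, 5.92 and 7.24 TPM in the LacZ livers and 2.49, 4.11 and 4.58 TPM in the HuR KD livers (log2 fold change -0.55 ± 0.13 SE, adjusted p = 0.0615), without overlap. The 2 OAS-like genes, Oasl1 (-0.62) and Oasl2 (-0.79), fell with overlap. Oas1a is one of several similar neighbouring genes on chromosome 5, and reads common to such copies may be divided among them.

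The IFIT family, whose proteins bind foreign RNA at the ribosome, had large mean changes and a large spread between livers. Ifit2 stood at 8.35, 15.1 and 20.7 TPM in the LacZ livers and 2.77, 6.903 and 9.72 TPM in the HuR KD livers (log2 fold change -1.10 ± 0.27 SE, adjusted p = 0.0761). Ifit1 stood at 22.5, 36.3 and 65.2 TPM in the LacZ livers and 10.01, 21.0 and 28.7 TPM in the HuR KD livers (log2 fold change -0.96 ± 0.34 SE, adjusted p = 0.181). LacZ livers 1, 2 and 6 were the highest 3 for Ifit1, at 65.2, 61.9 and 46.4 TPM. The other 3 LacZ livers, at 26.1, 22.5 and 23.2 TPM, overlapped with HuR KD livers 1, 2 and 4, at 26.7, 28.7 and 25.4 TPM. Ifit3, which shares much of its sequence with its neighbour Ifit3b, had a log2 fold change of -0.78 (adjusted p = 0.198). Isg15, a ubiquitin-like modifier, stood at 14.98, 22.3 and 48.2 TPM in the LacZ livers and 9.04, 14.8 and 20.3 TPM in the HuR KD livers (log2 fold change -0.74 ± 0.30 SE, adjusted p = 0.258). Usp18, the protease that removes ISG15 and restrains the receptor, stood at 22.7, 30.7 and 43.1 TPM in the LacZ livers and 10.3, 18.7 and 24.2 TPM in the HuR KD livers (log2 fold change -0.78 ± 0.20 SE, adjusted p = 0.0905). For Usp18 5 of 6 HuR KD livers were below all LacZ livers, for Isg15 3 of 6.

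Of the 5 other antiviral effectors 4 fell. Bst2, which tethers virions to the cell surface, stood at 146, 183 and 229.7 TPM in the LacZ livers and 114, 138 and 149 TPM in the HuR KD livers (log2 fold change -0.44 ± 0.13 SE, adjusted p = 0.116). Mx1, a dynamin-like GTPase, stood at 6.04, 7.31 and 12.8 TPM in the LacZ livers and 2.97, 4.998 and 6.75 TPM in the HuR KD livers (log2 fold change -0.66 ± 0.22 SE, adjusted p = 0.163). Both overlapped, with 4 HuR KD livers below all LacZ livers. Rsad2 (viperin, -0.71) and its neighbour Cmpk2 (-0.74) fell. Mx2 ranged from 7.51 to 14.9 TPM in LacZ livers and from 5.46 to 10.7 TPM in HuR KD livers (adjusted p = 0.398). Mouse Mx1 and Mx2 are annotated as polymorphic pseudogenes, so their RNA is not read here as working protein. All 7 other induced genes fell. Lgals3bp, a secreted glycoprotein, stood at 109.9, 122 and 161 TPM in the LacZ livers and 74.4, 91.6 and 103 TPM in the HuR KD livers (log2 fold change -0.53 ± 0.11 SE, adjusted p = 0.0512), without overlap. Ifi44 stood at 3.96, 5.39 and 9.83 TPM in the LacZ livers and 1.81, 2.49 and 4.03 TPM in the HuR KD livers (log2 fold change -0.94 ± 0.21 SE, adjusted p = 0.0545), with 5 HuR KD livers below all LacZ livers. Rtp4 (-0.69), Xaf1 (-0.62), Parp14 (-0.39), Parp9 (-0.27) and Ifi35 (-0.26) completed the group.

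All 8 interferon-inducible GTPases fell, with a median of -0.83. These are the immunity-related GTPases (Ifi47, Igtp, Irgm1, Irgm2 and Iigp1) and the guanylate-binding proteins (Gbp2, Gbp3 and Gbp7), which act on vacuoles that hold microbes. Iigp1, the most abundant, stood at 194, 259 and 414 TPM in the LacZ livers and 98.3, 161 and 194 TPM in the HuR KD livers (log2 fold change -0.86 ± 0.19 SE, adjusted p = 0.05501), without overlap by a narrow margin, as the lowest LacZ liver stood at 194.3 TPM and the highest HuR KD liver at 193.6 TPM. Gbp7 stood at 11.1, 18.1 and 34.9 TPM in the LacZ livers and 6.06, 9.26 and 12.2 TPM in the HuR KD livers (log2 fold change -1.05 ± 0.24 SE, adjusted p = 0.05795), with 5 HuR KD livers below all LacZ livers. The other 6 had log2 fold changes from -1.04 (Gbp3) to -0.51 (Ifi47), each with 3 of 6 HuR KD livers below all LacZ livers. Igtp and Irgm2 overlap in the annotation on the same strand, so reads in their shared stretch cannot be told apart.

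The Schlafen family, genes of lymphocyte and myeloid regulation, held the gene with the smallest p of all members. Slfn4, at chr11:83175186-83190216, plus strand of GRCm38, stood at 7.34, 9.62 and 12.6 TPM in the LacZ livers and 1.56, 3.16 and 4.21 TPM in the HuR KD livers (log2 fold change -1.45 ± 0.16 SE, adjusted p = 0.00156). Its mean in the HuR KD livers was 30.6% of control, and the highest HuR KD liver lay well below the lowest LacZ liver. Slfn5 stood at 10.6, 14.6 and 16.6 TPM in the LacZ livers and 4.81, 9.78 and 12.3 TPM in the HuR KD livers (log2 fold change -0.58 ± 0.18 SE, adjusted p = 0.143), and Slfn8 fell by 0.70 on the log2 scale.

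**Figure D2:**
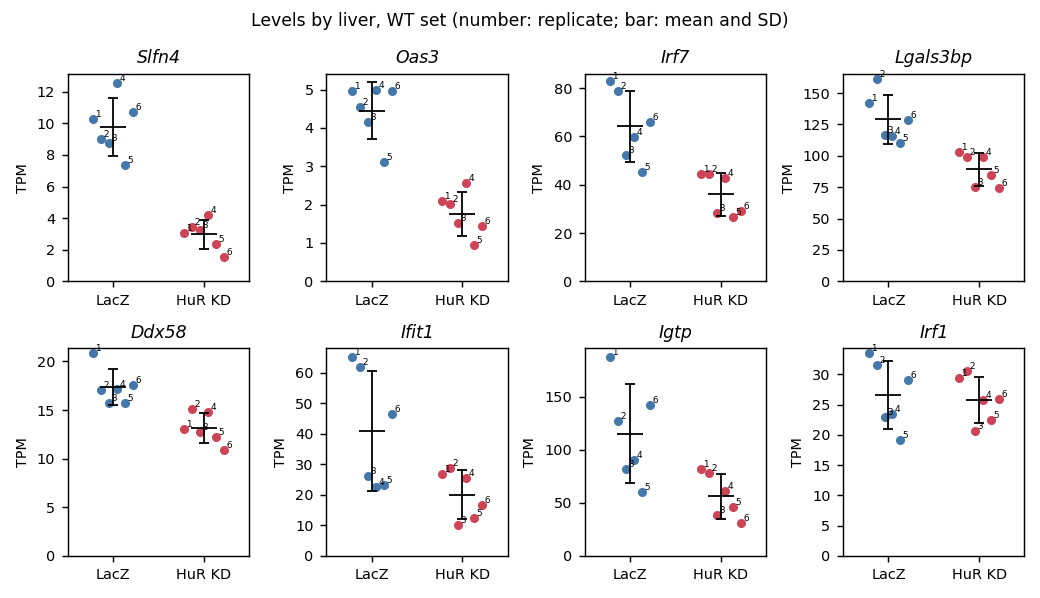
TPM of 8 mouse genes in each WT liver (points, with the replicate number), LacZ at left and HuR KD at right of each panel, with the mean and SD of 6 livers as bars. Slfn4, Oas3, Irf7, Lgals3bp and Ddx58 did not overlap between groups, Ifit1 and Igtp were divided within the LacZ group, and Irf1 covered one range in both groups.

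The promoters of genes that moved together are shown here for the elements named above. RefSeq windows of GRCm38.p6, from 250 bases before to 50 after the gene start, were at hand for 33 of the 43 mouse members. An ISRE core was searched as TTTCNNTTTC or its reverse complement GAAANNGAAA, and a GAS as TTCNNNGAA, which is its own reverse complement. Only exact matches inside the window were counted. A gene without a match may thus hold a variant or a more distant element. The ISRE core was in a window of 19 of the 33 genes (57.6%) and of 3.99% of all 27025 genes with a window, and the GAS in 9 of the 33 (27.3%) and in 9.55% of all. Windows with an ISRE core were found for 6 of 7 GTPases and 0 of 4 other induced genes. The 19 genes with an ISRE core had a median log2 fold change of -0.70 and all 19 were called lower, and the 14 without had a median of -0.62 with 11 called lower. The windows of 5 genes are printed, 5′ to 3′ on the strand of the gene, with ISRE and GAS matches in capitals. Oas3 (chr5:120777610-120777909, minus strand) and Ifit1 (chr19:34640639-34640938, plus strand) hold 1 and 2 ISRE cores, Igtp (chr11:58199306-58199605, plus strand) holds a GAS followed by an ISRE core, Irf1 (chr11:53769764-53770063, plus strand), which did not pass the test, holds a GAS, and Slfn4 (chr11:83174936-83175235, plus strand), which had the smallest p, holds neither.
Oas3: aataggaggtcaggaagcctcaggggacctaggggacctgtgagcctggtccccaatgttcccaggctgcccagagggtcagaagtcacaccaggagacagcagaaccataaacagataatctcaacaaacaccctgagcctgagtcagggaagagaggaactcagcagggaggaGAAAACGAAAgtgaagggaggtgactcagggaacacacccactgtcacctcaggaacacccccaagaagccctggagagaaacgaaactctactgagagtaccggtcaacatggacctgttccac
Ifit1: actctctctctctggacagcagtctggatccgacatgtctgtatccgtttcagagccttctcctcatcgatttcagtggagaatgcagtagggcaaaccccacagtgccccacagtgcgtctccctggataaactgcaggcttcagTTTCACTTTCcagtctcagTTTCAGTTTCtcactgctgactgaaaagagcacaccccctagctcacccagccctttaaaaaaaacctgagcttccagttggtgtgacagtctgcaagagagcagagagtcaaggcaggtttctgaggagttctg
Igtp: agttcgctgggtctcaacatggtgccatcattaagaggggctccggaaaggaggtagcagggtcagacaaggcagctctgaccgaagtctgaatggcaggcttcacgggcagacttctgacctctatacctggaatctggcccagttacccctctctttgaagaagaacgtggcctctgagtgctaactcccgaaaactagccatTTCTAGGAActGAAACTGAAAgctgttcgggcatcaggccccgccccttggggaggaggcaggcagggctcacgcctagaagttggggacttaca
Irf1: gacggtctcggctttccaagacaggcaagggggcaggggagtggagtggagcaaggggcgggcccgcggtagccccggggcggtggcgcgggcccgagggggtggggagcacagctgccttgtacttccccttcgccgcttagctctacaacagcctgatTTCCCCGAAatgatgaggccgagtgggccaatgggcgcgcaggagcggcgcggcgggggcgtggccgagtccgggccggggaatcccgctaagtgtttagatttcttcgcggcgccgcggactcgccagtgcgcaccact
Slfn4: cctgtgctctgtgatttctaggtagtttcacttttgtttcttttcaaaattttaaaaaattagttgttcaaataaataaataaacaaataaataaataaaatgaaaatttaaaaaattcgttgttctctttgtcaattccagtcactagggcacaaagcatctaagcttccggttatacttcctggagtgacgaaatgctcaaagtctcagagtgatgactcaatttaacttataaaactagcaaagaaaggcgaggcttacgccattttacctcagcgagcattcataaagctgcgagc

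**Figure D3:**
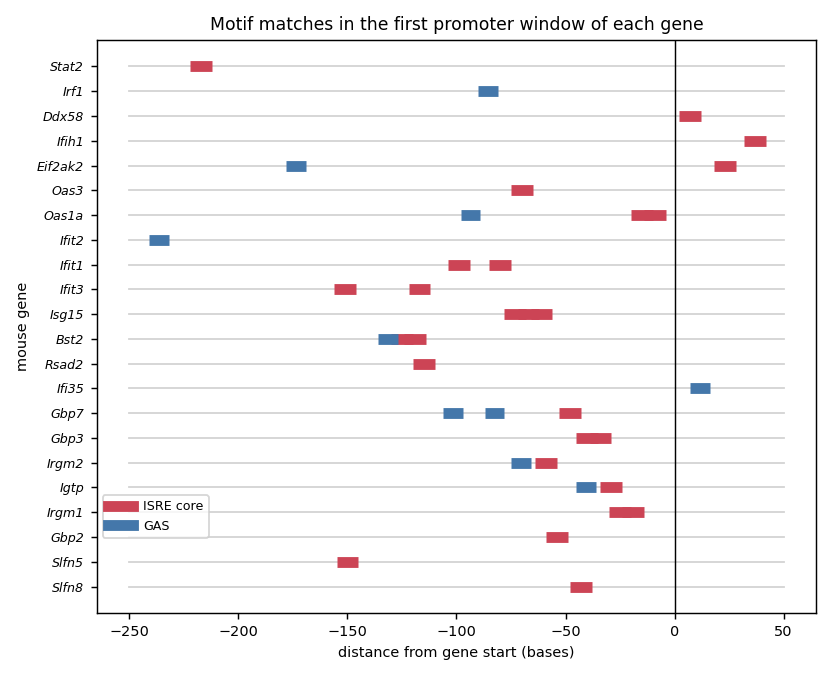
Positions of ISRE core (red) and GAS (blue) matches relative to the gene start, in bases, in the first 300-base window of each mouse gene that holds a match, ordered by role. ISRE cores lay before the start in most genes, farthest for Stat2, at -222, and after it in Ddx58, Ifih1 and Eif2ak2.

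Markers of other cell types were measured in the same livers, where 6.94% of all genes tested were called lower and 9.09% higher. Of the 10 Kupffer cell and macrophage markers, 9 were tested and 5 were called lower: Clec4f (-0.75, adjusted p = 0.0613), Cd68 (-0.40, adjusted p = 0.114), Cd5l (-0.42, adjusted p = 0.151), C1qb (-0.34, adjusted p = 0.173) and Adgre1 (-0.40, adjusted p = 0.257), with a median over the list of -0.40. Their summed level was 624 to 851 TPM in the LacZ livers and 446 to 748 TPM in the HuR KD livers. HuR KD livers 5 and 6, at 460.4 and 446 TPM, were the lowest, and HuR KD livers 1 and 2, at 562 and 595 TPM, were also below every LacZ liver. HuR KD livers 3 and 4, at 748 and 632 TPM, lay inside the LacZ range. HuR KD livers 3, 5 and 6 had interferon scores below the LacZ range, and livers 1, 2 and 4 within it. Cd5l, at a mean of 295 TPM in the LacZ livers, was the largest part of the marker sum. Of the T and NK cell markers 2 of 5 tested fell, Gzma and Gzmb, and the summed level was 10.9 to 21.6 TPM in the LacZ livers and 7.68 to 13.8 TPM in the HuR KD livers. Of the neutrophil and monocyte markers 1 of 5 tested fell, Ly6c2, and the summed level was 10.9 to 29.5 TPM in the LacZ livers and 9.49 to 16.7 TPM in the HuR KD livers. None of 4 plasmacytoid dendritic cell markers passed, and of 5 sinusoidal endothelial markers 1 was called higher, Stab2. In bulk tissue fewer cells of a type and less RNA per cell cannot be told apart, and the part of these cells in the lower interferon-stimulated genes was not tested.

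The rest of the interferon pathway was read from the same fit. Of 59 other pathway genes tested, 28 were called lower, 3 higher and 3 passed adjustment. Of all mouse genes tested, 6.94% were called lower and 9.09% higher, and 0.517% and 0.371% passed adjustment. The 21 ligands were at or near 0: 15 were listed at 0 in every liver, and the highest value was 2.62 TPM, for Ifng in a LacZ liver. The receptor subunit Ifnar1 passed the test with a log2 fold change of -0.13 (adjusted p = 0.282), and Ifnar2, at -0.10 (adjusted p = 0.556), and Ifngr1, at -0.14 (adjusted p = 0.6097), did not. Stat3 had a log2 fold change of 0.03 (adjusted p = 0.923). Of the 35 further induced genes tested 24 fell and 1 rose. Ifi27 (log2 fold change -0.56 ± 0.09 SE, adjusted p = 0.0195), Ifi27l2a (log2 fold change -1.25 ± 0.24 SE, adjusted p = 0.0376) and Ifi204 (log2 fold change -0.79 ± 0.16 SE, adjusted p = 0.0454) passed adjustment. Of the upstream sensing genes the endosomal RNA receptor Tlr3 (-0.63) and Tlr7 (-0.50) fell, and Irf3, the factor that starts interferon transcription, rose (0.23, adjusted p = 0.204).

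In the humanized livers few of the human genes passed the test. Of the 35 listed, 31 were tested. The other 4 were listed at or near 0: ZBP1 at 0 in every liver, MX2 up to 0.0139 TPM, IRF9 up to 0.0755 TPM and IRF7 up to 0.491 TPM. As the TPM came from featureCounts, a value of 0 stands for no read assigned to that gene. Absence is not read from it, since depth was limited and the treatment of reads shared by several genes is not given. Of the 31, 5 were called lower (GBP3, DHX58, DDX58, SLFN5 and IFIH1), against 7.87% of the 12738 genes tested, and 0 were called higher, against 3.6% of all genes. In limma 0 of the 31 passed adjustment (lowest adjusted p = 0.172), where 0.181% of all genes passed and were lower and 0.0314% passed and were higher. The median log2 fold change was -0.27, and that of all genes was -0.05, with 24 members below 0 and 7 above, where 57.3% of all genes were below 0. Scaling the libraries by median-of-ratios factors moved the median of all genes to 0.01 and the split of all calls from 1003 lower and 458 higher to 838 and 817, and added TRIM25 as 1 member called higher.

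GBP3, a guanylate-binding protein, stood at 7.86, 7.38, 9.08 and 7.87 TPM in LacZ livers 1 to 4 and 4.34, 5.43, 6.198 and 5.11 TPM in HuR KD livers 1 to 4 (log2 fold change -0.53 ± 0.14 SE, adjusted p = 0.172). SLFN5 stood at 3.204, 3.06, 5.24 and 2.53 TPM in LacZ livers 1 to 4 and 1.802, 1.32, 2.103 and 2.05 TPM in HuR KD livers 1 to 4 (log2 fold change -0.65 ± 0.22 SE, adjusted p = 0.279). These 2 genes did not overlap between groups, where 5.03% of all genes were lower without overlap and 2.13% higher. DHX58 (LGP2) stood at 2.42, 4.07, 4.88 and 5.29 TPM in LacZ livers 1 to 4 and 2.01, 1.27, 2.65 and 2.17 TPM in HuR KD livers 1 to 4 (log2 fold change -0.76 ± 0.24 SE, adjusted p = 0.262). DDX58 (RIG-I) stood at 13.9, 7.85, 18.7 and 18.5 TPM in LacZ livers 1 to 4 and 8.84, 5.85, 9.54 and 4.41 TPM in HuR KD livers 1 to 4 (log2 fold change -0.93 ± 0.30 SE, adjusted p = 0.274). IFIH1 (MDA5) had a log2 fold change of -0.52 (adjusted p = 0.419). IFIH1 lost its call in 5 of the 8 fits that left out 1 liver. The 3 sensors of the RIG-I family thus fell, each with at least 1 HuR KD liver inside the LacZ range. EIF2AK2 (-0.13) and TRIM25 (0.18) did not pass.

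For the genes most used as marks of the response, the humanized groups overlapped and livers within a group lay far apart. ISG15 stood at 22.8, 96.4, 94.8 and 21.9 TPM in LacZ livers 1 to 4 and 17.01, 55.3, 59.3 and 119 TPM in HuR KD livers 1 to 4, so that HuR KD liver 4 and LacZ livers 2 and 3 were the highest 3 (log2 fold change 0.13 ± 0.67 SE, adjusted p = 0.9701). MX1 stood at 4.89, 16.8, 26.3 and 8.04 TPM in LacZ livers 1 to 4 and 4.02, 7.76, 9.82 and 22.3 TPM in HuR KD livers 1 to 4 (log2 fold change -0.31, adjusted p = 0.885). The same 3 livers led. IFIT1 stood at 9.25, 29.7, 41.4 and 13.6 TPM in LacZ livers 1 to 4 and 10.1, 13.5, 12.8 and 34.4 TPM in HuR KD livers 1 to 4 (log2 fold change -0.32, adjusted p = 0.858). IFIT2 stood at 9.53, 8.67, 28.8 and 10.5 TPM in LacZ livers 1 to 4 and 5.04, 12.6, 10.97 and 9.96 TPM in HuR KD livers 1 to 4 (log2 fold change -0.42, adjusted p = 0.733). LacZ liver 3 was the highest for both IFIT genes. USP18 stood at 4.57, 7.65, 17.3 and 10.9 TPM in LacZ livers 1 to 4 and 7.25, 11.5, 12.1 and 7.91 TPM in HuR KD livers 1 to 4 (log2 fold change 0.05, adjusted p = 0.9796). BST2 stood at 84.5, 122, 151 and 75.7 TPM in LacZ livers 1 to 4 and 57.6, 74.8, 99.8 and 149.6 TPM in HuR KD livers 1 to 4 (log2 fold change -0.22, adjusted p = 0.852). For BST2, LacZ liver 3 and HuR KD liver 4 were nearly level.

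OAS3 stood at 3.88, 5.02, 6.59 and 3.31 TPM in LacZ livers 1 to 4 and 2.28, 3.27, 4.34 and 4.81 TPM in HuR KD livers 1 to 4 (log2 fold change -0.29, adjusted p = 0.7099). OASL, which binds RIG-I, stood at 7.31, 14.4, 12.4 and 4.01 TPM in LacZ livers 1 to 4 and 7.66, 8.27, 11.5 and 20.1 TPM in HuR KD livers 1 to 4 (log2 fold change 0.32, adjusted p = 0.812). Groups overlapped for both OAS genes, and OAS1 (0.01) and OAS2 (-0.29) did not pass either. STAT2 stood at 17.3, 14.3, 17.7 and 18.4 TPM in LacZ livers 1 to 4 and 19.96, 20.1, 19.8 and 15.6 TPM in HuR KD livers 1 to 4 (log2 fold change 0.15, adjusted p = 0.746). IRF1 stood at 3.97, 2.82, 4.795 and 6.70 TPM in LacZ livers 1 to 4 and 3.71, 5.92, 8.97 and 3.96 TPM in HuR KD livers 1 to 4 (log2 fold change 0.23, adjusted p = 0.816). Neither factor passed the test. GBP2 stood at 6.55, 2.799, 6.92 and 6.54 TPM in LacZ livers 1 to 4 and 4.79, 5.63, 6.13 and 1.92 TPM in HuR KD livers 1 to 4 (log2 fold change -0.27, adjusted p = 0.812). PARP9 stood at 15.9, 10.4, 16.3 and 15.02 TPM in LacZ livers 1 to 4 and 8.46, 11.1, 13.8 and 10.3 TPM in HuR KD livers 1 to 4 (log2 fold change -0.37, adjusted p = 0.512). RTP4 stood at 6.34, 8.19, 13.3 and 4.49 TPM in LacZ livers 1 to 4 and 1.71, 3.23, 5.75 and 7.93 TPM in HuR KD livers 1 to 4 (log2 fold change -0.74, adjusted p = 0.527). GBP2 was lowest in LacZ liver 2 and HuR KD liver 4, the deepest and most alike livers of the set. The remaining 9 members, from XAF1 (-0.43) to IFIT3 (-0.11), had log2 fold changes below 0 and did not pass.

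The scores of the humanized livers overlapped: LacZ livers 1 to 4 scored -0.29, -0.02, 0.54 and -0.22, and HuR KD livers 1 to 4 scored -0.72, -0.34, -0.02 and 0.06. HuR KD liver 1, the shallowest of the 8 with 2670469 reads, was the lowest for 17 of the 31 genes. LacZ liver 3 was the highest for 18. These counts were not made over all genes either, so whether they are particular to the members was not tested. The groups of genes did not move together in every liver. Over the 13 IFIT, OAS, ISG15, USP18 and other antiviral genes, HuR KD liver 4 and LacZ liver 2 scored 0.53 and 0.24, but over the 3 guanylate-binding proteins they scored -0.81 and -0.54, the lowest of the set. Without these 2 livers, 7 of the 31 genes were called lower, PARP9 and PARP14 joining the 5, and the median was -0.39. The median rested on single livers, as it was -0.03 without HuR KD liver 1, -0.04 without LacZ liver 3, -0.15 without LacZ liver 2 and -0.46 without HuR KD liver 4.

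**Figure D4:**
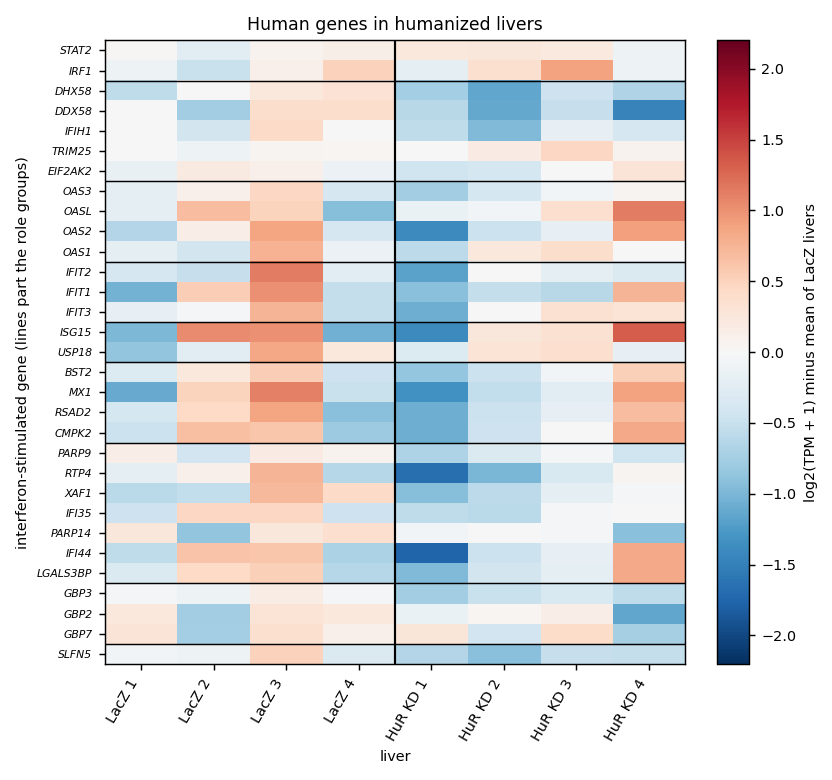
Each cell is the log2(TPM + 1) of a human gene in 1 humanized liver minus the mean of the 4 LacZ livers, with genes in rows by role and livers in columns (blue, lower; red, higher). LacZ liver 3 was high in most rows, HuR KD liver 1 low in most, and LacZ liver 2 and HuR KD liver 4 had antiviral scores above the LacZ mean and were low for GBP2, GBP7 and PARP14.

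Human markers of the other liver cell types were at or near 0 in this table. The summed level of the 10 Kupffer cell and macrophage markers was 0 to 1.24 TPM in the LacZ livers and 0.0834 to 0.519 TPM in the HuR KD livers, and C1QA, C1QB, CLEC4F, MARCO and VSIG4 were listed at 0 in every liver. Of the 9 T and NK cell markers listed, 6 were at 0 in every liver, and CD4 alone exceeded a mean of 1 TPM. Their summed level was 4.86 TPM in LacZ liver 2 and 3.08 TPM in HuR KD liver 4, the deepest livers of the set. It was at most 0.652 TPM in the others, and its part in the results was not tested. The mouse cells of these livers were not analysed here.

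Of 33 other human pathway genes tested, 11 were called lower and 1 higher, and 0 passed adjustment. Of all human genes tested, 7.87% were called lower and 3.6% higher, and 0.181% and 0.0314% passed adjustment. Of the 20 ligands, 19 were listed at 0 in every liver. IFNAR1, a subunit of the type I receptor, stood at 19.4 ± 3.63 TPM in the LacZ livers and 13.9 ± 1.93 TPM in the HuR KD livers (SD, n = 4 each) and fell (log2 fold change -0.44, adjusted p = 0.3697). IFNAR2 (-0.42, adjusted p = 0.514), IFNGR1 (0.21) and STAT3 (0.11) did not pass. JAK1, the kinase bound to both interferon receptors, stood at 24.8 ± 4.54 TPM in the LacZ livers and 16.7 ± 1.31 TPM in the HuR KD livers (SD, n = 4 each) and fell without overlap (log2 fold change -0.53, adjusted p = 0.225). JAK2 (-0.49), TBK1 (-0.58), TLR3 (-0.62) and PTPN6 (-0.71) fell too. Of the 15 further induced genes tested 5 fell, IFITM3 (log2 fold change -1.44 ± 0.36 SE, adjusted p = 0.156), CXCL10 (-1.17), IFITM2 (-0.86), GBP1 (-0.57) and ADAR (-0.54), and TOR3A rose (0.98, adjusted p = 0.164).

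Whether the response differed between the sets was tested on 29 pairs of human and mouse genes of the same symbol in a joint fit. The human change lay above the mouse change for 22 of the 29 pairs (75.9%). It did so for 38.1% of the 8202 pairs tested, or 48.8% of them with median-of-ratios factors. These shares are descriptive, as the members were chosen with earlier results known. For 4 pairs the difference passed an unadjusted p under 0.05, all with the human change higher, where 5.56% of the 8202 pairs tested were called in that direction and 14.2% in the other. In limma 0 of the 29 passed adjustment (lowest adjusted p = 0.1304), and 5.01% of all pairs did. OAS3 had a log2 fold change of -0.29 in the human and -0.998 in the mouse gene (difference 0.71 ± 0.27 SE, adjusted p = 0.1304). STAT2 had log2 fold changes of 0.15 and -0.32 (difference 0.47 ± 0.19, adjusted p = 0.157). GBP7 differed by 0.92 ± 0.39 (adjusted p = 0.187) and USP18 by 0.82 ± 0.38 (adjusted p = 0.222). DDX58 went the other way, with -0.93 in the human and -0.38 in the mouse gene, but did not pass (difference -0.55 ± 0.27, adjusted p = 0.273). When each of the 20 livers was left out in turn, the call was lost in 10 fits for USP18, in 5 for GBP7, in 1 for STAT2 and in 0 for OAS3. Without HuR KD liver 1 of the humanized set 7 pairs passed, and without its LacZ liver 2 only 2 did. The sets also differ in strain, shRNA, read length and the immune system of the host, and these cannot be told apart from species here. Pairs were matched by symbol alone, where the study used a list of homologous genes. Whether the genes of a pair are direct counterparts was not checked.

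**Figure D5:**
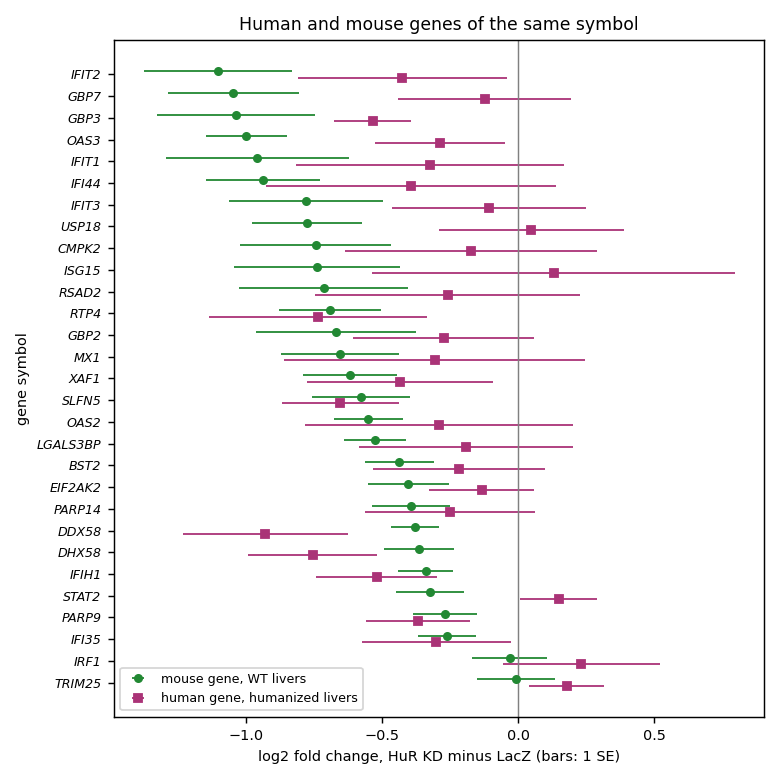
Log2 fold change (HuR KD minus LacZ, x axis) of the mouse gene in WT livers (green circles) and of the human gene of the same symbol in humanized livers (purple squares), with bars of 1 SE, for 29 pairs ordered by the mouse value. Mouse values lay at or below 0 for all pairs, and human values were nearer to 0 for most. DDX58, DHX58, IFIH1, PARP9, SLFN5, RTP4 and IFI35 were lower in the human set, and none of these differences passed the test.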

How the data were processed

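RNA from 20 livers was analysed. The authors trimmed the reads (cutadapt in the methods, Trim Galore in the submitters' processing notes), aligned them with HISAT2 (mm10, or a combined human and mouse index with GRCh38), counted them with featureCounts and deposited TPM per gene. The treatment of reads shared by several genes is not given in the sources used here. Each library adds up to 1000000 TPM, over human genes alone in the humanized set.

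Log2(TPM + 1) was fitted with limma 3.58.1 in R 4.3.3 (eBayes with trend), per set, where the mean over its livers reached 1 TPM, with Benjamini-Hochberg adjustment over all genes. A gene was called at an unadjusted p under 0.05, the threshold of the study, and adjusted p-values are printed beside it. Differences between sets came from a joint fit over same-symbol pairs. Reads were recovered as whole numbers from the TPM steps of genes seen in 4 or more libraries. Fits and recovery were tested on simulated data. Values of every group are given for the 2 members with the smallest p per role group and for members without overlap. Members and lists were chosen with earlier results of these data known. A limma p-value sets the difference between groups against the spread between livers within a group, and covers this experiment alone. Mouse positions are those of GENCODE M21 on GRCm38. Alternatives were a pseudocount of 0.1, other filters and scalings, eBayes without trend, a replicate block, voom and leaving out livers. scipy 1.17.1 and matplotlib 3.10.9 were used for the permutation test and the figures. A gene of the pathway is not reported here.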

Additional observations from a re-analysis of the deposited data

Results flagged for a closer look

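In 5 of the 72 gene and group combinations examined for single livers, 1 liver lay far from the rest of its group, and chance flags about 1 in 20 such groups. In WT livers this was Ddx58 in LacZ liver 1, at 20.8 TPM, above the others. In humanized livers GBP2 was low in LacZ liver 2, at 2.799 TPM, and STAT2 was low in HuR KD liver 4, at 15.6 TPM. IFIT1 was high in HuR KD liver 4, at 34.4 TPM, and IFIT2 was high in LacZ liver 3, at 28.8 TPM. Of the 4 humanized values, 3 came from LacZ liver 2 and HuR KD liver 4.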

How the results depend on the processing

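The WT count of 39 genes called lower ran from 35 of 39 genes at a mean TPM of at least 5 to 40 with median-of-ratios factors, was 36 with voom, and ran from 31 (without LacZ liver 1) to 40 when 1 liver was left out. It was 2 at an adjusted p under 0.05 and 25 without the 2 shallowest livers. That setting was chosen after seeing the data, as were the 2 that deal with humanized HuR KD liver 4 and LacZ liver 2. No WT member was called higher in any setting. The WT median ran from -0.74 to -0.55 with 1 liver left out. Of the 39 genes, 14 lost their call without the 2 shallowest livers, among them Ifit1 (-0.78), Stat2 (-0.22) and Isg15 (-0.43), and Isg15 did not pass with voom (-0.51). With 1 of 12 livers left out, 8 genes lost their call in at least 1 fit: Gbp2 in 7, Isg15, Parp9 and Rsad2 in 6, Ifi35 in 5, Oasl1 in 4, Stat2 in 3 and Ifi47 in 2. Irf1 and Trim25, which had not passed, changed sign.

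The humanized count of 5 was 3 of 24 genes at a mean TPM of at least 5, which leaves out DHX58 and SLFN5, was 0 at an adjusted p, and ran from 4 to 7 with 1 liver left out. The count called higher was 0, and 1 with median-of-ratios factors and 1 with quantile normalization. The humanized median ran from -0.46 without HuR KD liver 4 to -0.03 without HuR KD liver 1, was -0.04 without LacZ liver 3 and -0.15 without LacZ liver 2, and was -0.10 with voom. With 1 liver left out, 13 of the 31 members changed sign in at least 1 fit, 0 of them called: CMPK2, GBP7, IFI44, IFIT3, LGALS3BP, OAS1, OAS2, RSAD2, GBP2 (-0.53 to 0.0138), IFIT1 (-0.68 to 0.0138), ISG15 (-0.27 to 0.64), MX1 (-0.70 to 0.0616) and USP18 (-0.24 to 0.33). The causes were not tested.

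The 4 pairs whose response differed became 0 after adjustment and ran from 2 to 7 with 1 liver left out. Across all pairs, median-of-ratios factors moved the calls from 1162 lower and 456 higher to 935 and 754. Without humanized HuR KD liver 4 and LacZ liver 2, USP18 did not pass (0.83) and DDX58 passed (-0.62). HuR mRNA stayed lower and called in all fits that tested it, from -0.95 to -0.77 in WT and from -0.72 to -0.46 in humanized livers.

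Replicate numbers do not pair the livers: same-numbered livers had deviations correlated from -0.14 to 0.21 in the WT and from -0.25 to 0.14 in the humanized set. With the replicate block 39 WT and 5 humanized members were called lower and 5 pairs differed, DDX58 (-0.55) being added. Voom was not run for the difference between the sets.
Depth limits the low TPM of WT LacZ liver 2 and of the 6 shallower humanized livers most.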

Other observations

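Some genes of the pathway outside the member list responded differently in the human and the mouse set, and were chosen after their values were seen. IFITM2, a membrane protein that blocks viral entry, changed by -0.86 in the human and 0.17 in the mouse gene (difference -1.04 ± 0.19 SE, limma adjusted p = 0.00258). JAK1 changed by -0.53 and 0.15 (difference -0.68 ± 0.14 SE, limma adjusted p = 0.00707). IFITM3 (difference -1.26) and TOR3A (difference 1.10) also passed adjustment over all pairs (limma adjusted p = 0.0448 and 0.0396). Of all 8202 pairs 5.01% passed adjustment, 307 with the human change lower and 104 with it higher. IFITM2 and IFITM3 are close copies of each other, and reads may be divided between them. The human and mouse genes were paired by symbol alone here too.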
